A study of Rattus norvegicus with 12 samples.

Results

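The genes described are those of the constitutive proteasome, the protease complex that every cell carries. Members were the genes whose single platform symbol begins with Psma, Psmb, Psmc, Psmd or Psme followed by a digit, without the immunoproteasome genes Psmb8, Psmb9 and Psmb10. The rule gave 38 genes of 14217 named by the array, measured by 52 probe sets, and the brightest of a gene's probe sets, by its mean over 12 arrays, stood for that gene. Of these 38 genes 33 encode subunits of the complex or its activators and 3 encode assembly chaperones of its cap (Psmd5, Psmd9 and Psmd10). The other 2, Psmc3ip and Psme3ip1, match the letters of the rule and encode no subunit. Psmb6, the gene of the third catalytic subunit, and Psme3, an activator gene, were named only by probe sets that list several genes and were not analysed here.

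The arrays measured total RNA of renal cortex from male rats, 1 array for each of 12 kidney grafts. All recipients were wild type. The grafts were 6 wild-type and 6 ABCC2-/- kidneys, the latter lacking the organic anion export pump MRP2. The series asks what the loss of this pump in the kidney alone does to a graft, and the comparison was therefore deficient against wild-type grafts. Strain, age, donors, time after transplantation and how the line lost Abcc2 are not given in the sources used here, nor is whether grafts of 1 genotype came from separate donors, so that p-values rest on the spread among these 12 grafts alone. Values are probe set signals on a linear scale in arbitrary units, which do not compare between genes. Log2 differences are deficient minus wild type, each with its standard error (SE) from a limma fit over 18625 probe sets, and a probe set was called at a Benjamini-Hochberg adjusted p under 0.05.

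The proteasome degrades proteins that carry ubiquitin chains. Its core particle is a stack of rings, in which alpha subunits form the outer rings, which gate the entrance, and beta subunits form the inner rings, of which some cut peptide bonds. The cap holds a ring of ATPases that unfold the substrate and push it through the gate, together with non-ATPase subunits that bind, deubiquitinate and position it. The activators PA28 and PA200 can dock on the core in place of the cap. In kidney, proximal tubule cells take up and break down much protein, and the transcription factors NRF1 and NRF2 are known to raise proteasome gene expression in cells under proteotoxic or oxidative stress.

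The label check held, and some arrays stood apart. Abcc2 had a signal between 0.787 and 0.987 in wild-type and between 0.0387 and 0.213 in deficient grafts, without overlap (exact two-sided permutation p = 0.00216, the smallest that 6 against 6 arrays can give). Deficient replicates 3, 10 and 14 had Gapdh 3′ to 5′ ratios of 1.28 to 1.36, against 1.64 to 1.93 in the other 9 arrays. This ratio compares control probe sets at both ends of 1 transcript and reflects how far labelled RNA reached towards the 5′ end. These 3 arrays are also the last-listed deficient ones. In wild-type grafts the last-listed replicates 4, 7 and 8 did not overlap the first-listed replicates 1, 6 and 9 in 35.7% of probe sets. The labels name no batch, and the order of listing is not one. All 7 proximal tubule markers passed the level filter, while markers of B cells, skeletal muscle and hepatocytes did not.

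No proteasome gene was called between the genotypes. Of 38 members, all of which passed the level filter, 0 had an adjusted p under 0.05 in limma, against 0.0215% of all probe sets (4 of 18625, all lower in deficient grafts). At an unadjusted p under 0.05 there were 2 members, Psma1 and Psmd6, which is 5.26% of members against 7.98% of all probe sets. No member separated the genotypes without overlap, which 0.161% of probe sets did with higher and 0.274% with lower signal in deficient grafts. Fold changes were small. They ran from 0.859 for Psmd3 to 1.34 for Psmc3ip, and from 0.859 to 1.20 among the 36 subunit and chaperone genes.

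Signs leaned upwards relative to all genes, a lean that was lost when only 3 deficient arrays were left out. The log2 difference was positive in 29 members and negative in 9, with a median of 0.064, against 41.4% positive and a median of -0.041 over all 10639 tested genes. Centring each array on its median shifts every gene alike. It took the median over all genes to -0.097 and that of the members to 0.0070, with 20 members positive and 18 negative (52.6% against 29.7% of all genes). With quantile normalization the split was 32 to 6 (84.2% against 44.4%). With the Gapdh ratio as a covariate it was 19 to 19, against 43.6% of all genes positive. Without deficient replicates 3, 10 and 14 it was 16 to 22 (42.1% against 49.0%).

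**Figure D1:**
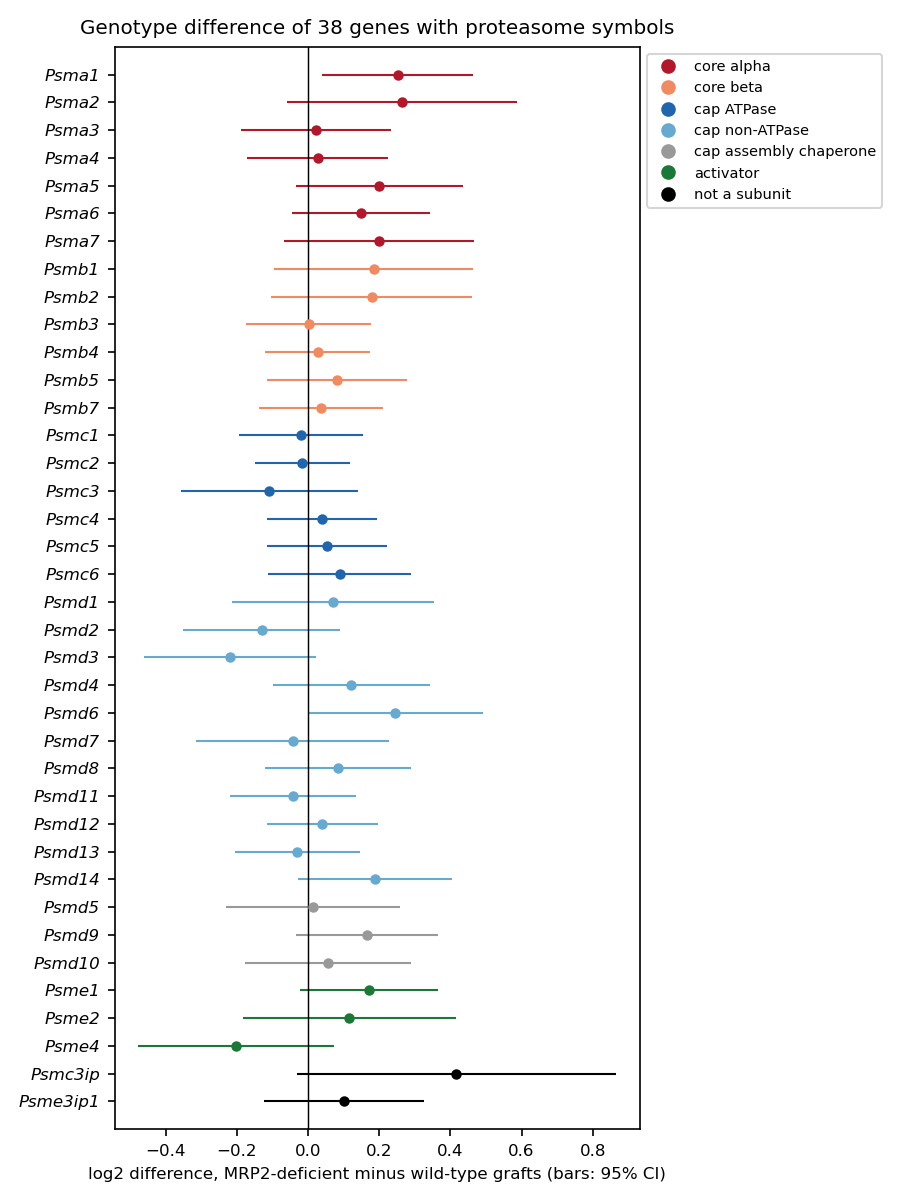
Log2 difference between MRP2-deficient and wild-type grafts (horizontal axis) for each of the 38 genes, coloured by class, from the limma fit over 12 arrays (6 per genotype). Points are estimates and bars 95% confidence intervals. The bars of Psma1 and Psmd6 do not reach past 0, and core alpha genes lie to the right of it.

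The alpha subunits of the core had the highest median difference of the subunit classes. All 7 were positive, from 0.022 to 0.26, with a median of 0.20, and 0 of 7 were called. With median centring 5 of 7 were positive and the median was 0.14. Psma1 (alpha6) had the lowest p of the class. Its signal was 6.64, 7.34 and 7.63 (lowest, median and highest) in wild-type grafts and 7.34, 8.45 and 10.8 in deficient grafts. Deficient replicates 3, 10 and 14 held the 3 highest values, 9.22 to 10.8, and the other 3 deficient arrays, at 7.34 to 7.67, overlapped the wild type. The fold was 1.19 (95% confidence interval 1.03 to 1.38, log2 difference 0.25, SE 0.10, unadjusted p = 0.0224, adjusted p = 0.610).

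Psma2 (alpha2) had the largest difference of the class and a wide spread. Wild-type signals were 11.0, 12.7 and 15.4, and deficient signals 12.02, 15.0 and 22.5 (lowest, median, highest). Both genotypes were split by listing. Wild-type replicates 1, 6 and 9 lay at 11.0 to 11.7 and replicates 4, 7 and 8 at 13.7 to 15.4. Deficient replicates 5, 9 and 11 lay at 12.02 to 12.33 and replicates 3, 10 and 14 at 17.7 to 22.5. The fold was 1.20 (0.961 to 1.50, log2 difference 0.26, SE 0.15, adjusted p = 0.635), and without replicates 3, 10 and 14 the log2 difference was -0.078.

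Psma3 (alpha7), whose tail helps to close the gate, had the smallest difference of the class. Its signal was 2.22, 2.73 and 2.88 in wild-type and 2.28, 2.65 and 3.21 in deficient grafts, and 2 deficient arrays (replicates 3 and 5) lay above the wild-type range, with the other 4 inside it. The fold was 1.02 (0.877 to 1.18, SE 0.10 on the log2 scale, adjusted p = 0.945). Among the others, Psma5 (log2 difference 0.20, adjusted p = 0.634), Psma7 (0.20, adjusted p = 0.639) and Psma6 (0.15, adjusted p = 0.639) had positive values and Psma4 lay near 0 (0.027, adjusted p = 0.925). In Psma5, Psma6 and Psma7 the 3 deficient arrays with low Gapdh ratios lay above every other array. For Psma5 the margin was close to a tie, with 10.7421 in deficient replicate 14 and 10.7419 in wild-type replicate 8. In bulk cortex, a change in the share of a cell type and a change in RNA per cell cannot be told apart.

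**Figure D2:**
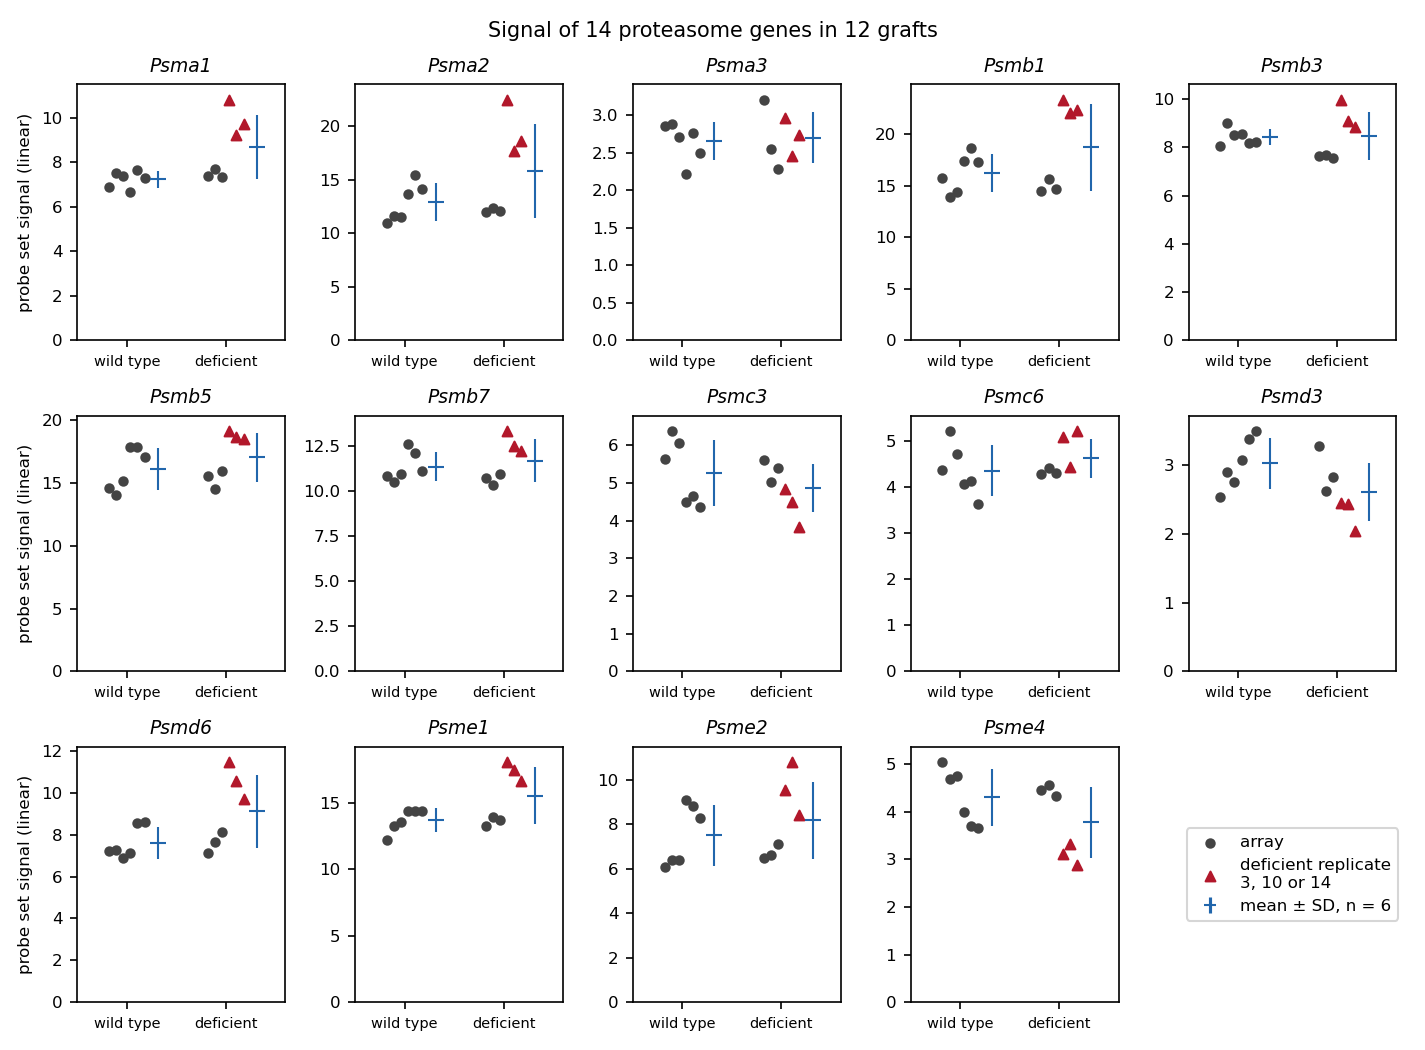
Linear probe set signal of 14 proteasome genes in each of 12 grafts, 6 per genotype, drawn in the order of listing within each genotype, with the mean ± SD beside the points. Red triangles are deficient replicates 3, 10 and 14, which lie above the other 9 arrays in Psma1, Psma2, Psmb1, Psmb5, Psmd6 and Psme1 and below them in Psmd3 and Psme4.

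The beta subunits had a lower median than the alpha subunits, with 0 of 6 called. All 6 were positive, from 0.0015 to 0.18, with a median of 0.059, and with median centring 3 of 6 were positive. The difference between the classes was not tested. Psmb1 (beta6) had the lowest p of the class. Its signal was 13.9, 16.6 and 18.7 in wild-type and 14.5, 18.9 and 23.4 in deficient grafts (lowest, median, highest). Replicates 3, 10 and 14 lay at 22.1 to 23.4, above every wild-type array, and the other deficient arrays at 14.5 to 15.7, within the wild-type range. The fold was 1.14 (0.937 to 1.38, log2 difference 0.18, SE 0.13, adjusted p = 0.654).

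The catalytic subunits differed by little. Psmb5 (beta5) carries the chymotrypsin-like activity that proteasome inhibitor drugs target first. It had 14.1, 16.1 and 17.9 in wild-type and 14.5, 17.2 and 19.2 in deficient grafts, for a fold of 1.06 (0.923 to 1.21, SE 0.093, adjusted p = 0.759). Psmb7 (beta2) carries the trypsin-like activity. It had 10.5, 11.0 and 12.6 in wild-type and 10.3, 11.6 and 13.4 in deficient grafts, for a fold of 1.03 (0.909 to 1.16, SE 0.082, adjusted p = 0.875). In both genes the ranges of the genotypes overlapped, and the intervals allow changes of up to 1.21-fold and 1.16-fold.

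Psmb3 (beta3) had the smallest difference of the class, a fold of 1.00 (0.886 to 1.13, SE 0.083, adjusted p = 0.997), but its deficient arrays did not lie together. Wild-type grafts had 8.06, 8.37 and 8.99. Deficient replicates 5, 9 and 11 lay at 7.55 to 7.67, below every wild-type array, and replicates 3, 10 and 14 at 8.86 to 9.98, of which 2 lay above every wild-type array. Psmb2 (beta4) was alike in form, with 2 deficient arrays below and 4 above the wild-type range (log2 difference 0.18, adjusted p = 0.664). Psmb4 (beta7), which helps the core to assemble, had 0.027 (adjusted p = 0.894).

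The promoters of the members were read for the known sites of factors that act on proteasome genes. The promoters are RefSeq windows of 300 bases on GRCr8, from 250 before to 50 after the start, and 34 of the 38 genes matched the table. Psma7, Psmd6, Psmd12 and Psmd14 did not. The core of the antioxidant response element, TGACNNNGC on either strand, occurred in 7 of 34 member promoters (20.6%) against 12.1% of 33469 promoters in the table. The CCAAT box on either strand occurred in 18 of 34 (52.9%) against 37.5%. Of 12 core genes with a promoter, 3 held the former and 9 the latter. The stretches shown hold the matches upstream of core genes and of Psme4, the activator gene with the largest negative difference. Capitals mark the element, and each stretch is read 5′ to 3′ on the gene's strand.
Psmb2, chr5:144254965-144255023, plus strand, match 68 bases before the start: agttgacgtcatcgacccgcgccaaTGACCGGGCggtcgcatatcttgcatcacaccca
Psmb5, chr15:32047406-32047464, minus strand, match 60 bases before the start: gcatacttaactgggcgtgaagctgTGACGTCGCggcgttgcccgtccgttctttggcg
Psma3, chr6:95219712-95219748, plus strand, opposite-strand match 12 bases before the start: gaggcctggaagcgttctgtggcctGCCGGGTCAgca
Psme4, chr14:108706563-108706621, plus strand, opposite-strand match 55 bases before the start: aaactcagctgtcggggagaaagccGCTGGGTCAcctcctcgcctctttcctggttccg

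In Psmb2 the element shares a base with a CCAAT box, and none of the other 3 printed elements overlaps one. The other promoters with the element were those of Psmd1, Psmd3 and Psmd9. The genes with the element went in both directions. Their log2 differences ran from -0.22 (Psmd3) to 0.18 (Psmb2), with a median of 0.070, against a median of 0.054 in the 27 genes without it. For the CCAAT box the medians were 0.078 with and 0.046 without it. In the last-listed arrays of both genotypes alone, the order for the antioxidant element was the opposite. There the median log2 difference was 0.13 with the element and 0.15 without it. For the CCAAT box the order was kept there, with medians of 0.18 with and 0.12 without it. The differences between these medians were not tested. A match of letters is a description and shows no binding.

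The ATPases of the cap had a median near 0. Of 6 members 3 were positive and 3 negative, from -0.11 to 0.089, with a median of 0.012, and 0 were called. Psmc6 (Rpt4) had the lowest p and the highest value. Its signal was 3.64, 4.25 and 5.22 in wild-type and 4.28, 4.41 and 5.22 in deficient grafts, and the deficient values lay inside the wild-type range (fold 1.06, 0.926 to 1.22, SE 0.095, adjusted p = 0.743). Psmc3 (Rpt5), the subunit that contacts incoming ubiquitin chains, had the lowest. It had 4.36, 5.14 and 6.39 in wild-type and 3.83, 4.94 and 5.62 in deficient grafts, for a fold of 0.928 (0.780 to 1.10, SE 0.12, adjusted p = 0.747).

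Within each genotype Psmc3 split by listing more than it did by genotype. First-listed wild-type arrays lay at 5.64 to 6.39 and last-listed ones at 4.36 to 4.64, while first-listed deficient arrays lay at 5.02 to 5.62 and last-listed ones at 3.83 to 4.85. Psmc1 (-0.021), Psmc2 (-0.016), Psmc4 (0.039) and Psmc5 (0.054) lay close to 0, with adjusted p from 0.810 to 0.936. On the log2 scale Psmc2 had the smallest SD within genotypes of these ATPases, 0.052, with signals in wild-type grafts from 16.1 to 17.2 and deficient grafts from 15.6 to 17.4.

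The non-ATPase subunits of the cap held both the highest and the lowest values of the cap. Of 11 members 6 were positive and 5 negative, with a median of 0.040, and 0 were called. Psmd6 (Rpn7), a subunit of the lid, had the lowest p. Its signal was 6.87, 7.23 and 8.61 in wild-type and 7.14, 8.90 and 11.5 in deficient grafts. Replicates 3, 10 and 14 were the 3 highest arrays, at 9.67 to 11.5, and the other deficient arrays lay inside the wild-type range. The fold was 1.19 (1.00 to 1.41, log2 difference 0.25, SE 0.12, unadjusted p = 0.0498, adjusted p = 0.6245).

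Psmd3 (Rpn3), another lid subunit, had the lowest value. Wild-type signals were 2.53, 2.99 and 3.50 and deficient signals 2.04, 2.54 and 3.28 (lowest, median, highest). Here replicates 3, 10 and 14 were the 3 lowest arrays, at 2.04 to 2.44, and the other deficient arrays lay inside the wild-type range. The fold was 0.859 (0.727 to 1.02, log2 difference -0.22, SE 0.11, adjusted p = 0.628). For Psmd14 (Rpn11), the deubiquitinase that removes chains before degradation, the log2 difference was 0.19 (SE 0.10, adjusted p = 0.628), with deficient signals of 5.47, 6.39 and 7.93 against 4.70, 5.61 and 6.60.

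The scaffold subunits of the base went in both directions, Psmd1 (Rpn2) at 0.070 and Psmd2 (Rpn1) at -0.13, with adjusted p of 0.855 and 0.680. The ubiquitin receptor gene Psmd4 (Rpn10) had 0.12 (adjusted p = 0.693). The remaining lid genes Psmd7, Psmd8, Psmd11, Psmd12 and Psmd13 lay between -0.044 and 0.084, with adjusted p from 0.760 to 0.910. The assembly chaperones of the base, which hold ATPases until they join the ring, were positive in 3 of 3, with 0.014 for Psmd5, 0.057 for Psmd10 and 0.17 for Psmd9 (adjusted p from 0.634 to 0.974). With median centring 2 of these 3 were positive.

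The activators did not move as a group, and 0 of 3 were called. Psme1 encodes PA28 alpha, which with PA28 beta forms a ring that opens the core for peptide production. Its signal was 12.2, 14.0 and 14.4 in wild-type and 13.3, 15.3 and 18.1 in deficient grafts, with replicates 3, 10 and 14 at 16.7 to 18.1 above every other array. The fold was 1.13 (0.985 to 1.29, log2 difference 0.17, SE 0.092, adjusted p = 0.628). Psme2 encodes PA28 beta. It had 6.08, 7.35 and 9.09 in wild-type and 6.50, 7.79 and 10.8 in deficient grafts, for a fold of 1.08 (0.880 to 1.33, SE 0.14, adjusted p = 0.771).

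Psme2 was a clear case of the split within both genotypes. First-listed wild-type arrays lay at 6.08 to 6.41 and last-listed ones at 8.30 to 9.09, while first-listed deficient arrays lay at 6.50 to 7.14 and last-listed ones at 8.44 to 10.8. Psme4 encodes PA200, a single-chain activator. It had 3.66, 4.34 and 5.05 in wild-type and 2.89, 3.83 and 4.56 in deficient grafts, with replicates 3, 10 and 14 the 3 lowest at 2.89 to 3.33. The fold was 0.869 (0.719 to 1.05, log2 difference -0.20, SE 0.13, adjusted p = 0.639).

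PA28 genes respond to interferon, as the immunoproteasome genes do, and interferon genes and immune cell markers were read beside them. Of 9 tested interferon response genes 1 was positive and 8 negative, with 0 called, and their summed signal was 6.81 to 12.8 in wild-type and 7.26 to 11.0 in deficient grafts. Summed T cell markers were at 1.25 to 1.49 and 0.919 to 1.53, and summed macrophage markers at 3.14 to 4.06 and 3.50 to 4.04. Such sums weigh the brightest genes most. Of 5 tested T cell markers 1 was positive and 4 were negative. Of 5 macrophage markers 2 did not pass the level filter, and of the 3 tested 2 were positive and 1 negative. The part of these cells in the PA28 values was not tested.

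Most core genes were highest in the same 3 arrays. Averaged over the 7 alpha genes relative to each gene's wild-type mean, log2 signal was 0.30 to 0.45 in deficient replicates 3, 10 and 14, -0.079 to -0.0024 in deficient replicates 5, 9 and 11, and -0.080 to 0.12 in wild-type grafts. For the beta genes these ranges were 0.20 to 0.35, -0.12 to -0.058 and -0.062 to 0.068. The cap ATPases lay at -0.082 to 0.11 in the same 3 arrays and at -0.12 to 0.13 in wild-type grafts, within the wild-type range. The non-ATPase subunits of the cap lay at 0.14 in replicate 3, 0.075 in replicate 10 and -0.052 in replicate 14, each outside the range of the other 9 arrays (-0.019 to 0.056), and not on 1 side of it. All tested genes lay at -0.12 to -0.0092 in these 3 arrays.

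In 8 of 13 core genes the 3 arrays were above each of the other 9, and in 0 of 13 below. Among the 17 cap subunits they were above in 3 (Psmd6, Psmd8 and Psmd14) and below in 2 (Psmd2 and Psmd3). Over all probe sets the 3 arrays were above in 9.00% and below in 9.40%. Among the activators Psme1 was above and Psme4 below, and Psmc3ip was above. The core genes concerned were Psma1, Psma2, Psma5 (by the near tie given above), Psma6, Psma7, Psmb1, Psmb2 and Psmb5. This split was noticed in these arrays and is given without a test.

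**Figure D3:**
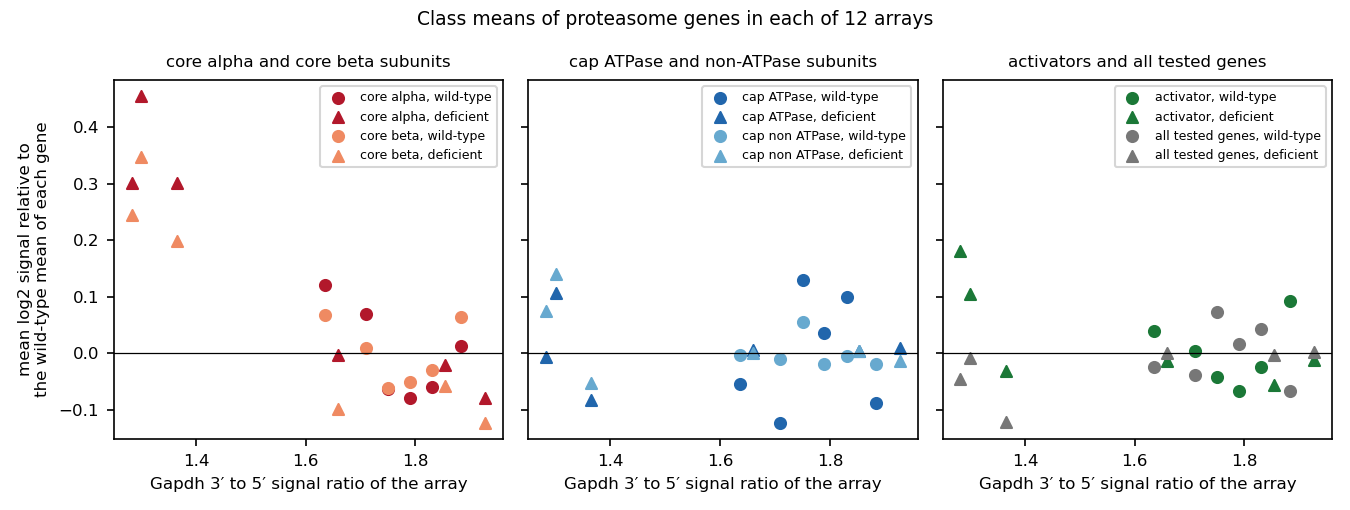
Mean log2 signal of each class, relative to the wild-type mean of each gene (vertical axis), against the Gapdh 3′ to 5′ ratio of the array (horizontal axis), for 12 arrays. Circles are wild-type and triangles deficient grafts. The 3 arrays with ratios of 1.28 to 1.36 have core alpha means of 0.30 to 0.45, while their cap ATPase means lie among those of the other arrays. Their cap non-ATPase means lie outside the other arrays, above in 2 and below in 1.

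The medians of the core were lower without these arrays. Without deficient replicates 3, 10 and 14 the median of the alpha genes was -0.018, with 3 of 7 positive, and that of the beta genes -0.10, with 0 of 6 positive, while all tested genes had -0.0027. That fit sets 3 first-listed deficient arrays against wild-type arrays of both parts of the list. The first-listed arrays of both genotypes, taken alone, also leave these 3 out. There the alpha median was 0.082, with 5 of 7 positive, against -0.051 over all tested genes. The beta median there was -0.055, with 2 of 6 positive. With the Gapdh ratio as a covariate on all 12 arrays, the alpha median was -0.0017 and the beta median -0.048. With the order of listing as a block beside that covariate, they were 0.089 and -0.013, against -0.056 over all tested genes.

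Within wild-type grafts alone the listing also divided proteasome genes. Those divided went 1 way among the alpha genes and 1 way among the cap ATPases, but both ways among the beta and non-ATPase genes. The last-listed wild-type arrays and the first-listed ones did not overlap in 27 of 38 members, against 35.7% of probe sets. The last-listed were above in 14 members and below in 13, and over all 18625 probe sets above in 2230 and below in 4411. Of the 7 alpha genes 4 were above (Psma2, Psma5, Psma6 and Psma7) and 0 below. Of the 6 cap ATPases 0 were above and 4 below (Psmc3, Psmc4, Psmc5 and Psmc6). Among the beta genes 3 were above and 1 below, and among the non-ATPase subunits 4 above and 5 below.

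Genotype differences were therefore also taken within each part of the list. In the first-listed arrays (deficient replicates 5, 9 and 11 against wild-type 1, 6 and 9) 0 of 38 members were called, against 0.0215% of probe sets, and 2 had an unadjusted p under 0.05, which is 5.26% of members against 12.5% of tested genes. There 16 members were positive and 22 negative, 42.1% positive against 37.4% of tested genes. In the last-listed arrays (deficient 3, 10 and 14 against wild-type 4, 7 and 8) 9 members were called, against 6.39% of probe sets. The 8 members that were higher there, against 3.68% of probe sets, were Psma1, Psma2, Psma7, Psmb1, Psmb2, Psmd6, Psmd14 and Psme1. The 1 that was lower, against 2.71%, was Psmd3. In this part of the list genotype and Gapdh ratio cannot be told apart.

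In the last-listed arrays the called members differed by moderate amounts. The log2 difference of Psma1 was 0.46 (SE 0.090, adjusted p = 0.0139), that of Psmd14 0.46 (SE 0.097, adjusted p = 0.0189), that of Psmb2 0.46 (SE 0.093, adjusted p = 0.0168) and that of Psma2 0.44 (SE 0.098, adjusted p = 0.0246). Psmd6, Psmb1, Psma7 and Psme1 had 0.39, 0.34, 0.31 and 0.27, and Psmd3 had -0.53 (SE 0.11, adjusted p = 0.0161). None of the cap ATPases was among them, and the highest of these there was Psmc6, at 0.31 (adjusted p = 0.0718). Of 36 tested cell type markers 2 were called in the last-listed arrays, against 6.39% of probe sets. Both were lower, Slc5a2 of the proximal tubule (-0.41, SE 0.11, adjusted p = 0.0449) and Slc12a3 of the distal tubule (-0.70, SE 0.11, adjusted p = 0.00387). Other tubule markers were not called there. Of these only Slc34a1 (0.14) and Aqp2 (0.14) were positive. The rest were negative, the lowest being Slc12a1 (-0.30), Cubn (-0.27) and Slc22a8 (-0.21). The part of these markers in the result was not tested. With the order of listing as a block over all 12 arrays 0 members were called in limma, against 0.601% of probe sets, and 11 had an unadjusted p under 0.05 (28.9% of members against 20.6% of tested genes).

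The change of the genotype difference between the parts of the list was tested as an interaction, a choice made after seeing the data. It was called for Psmd3, whose difference was 0.089 in the first-listed and -0.53 in the last-listed arrays (change -0.62, SE 0.15, adjusted p = 0.0363), and for Psmd14, with -0.088 and 0.46 (change 0.55, SE 0.12, adjusted p = 0.0278). These are 2 of 38 members, against 2.54% of probe sets. Wild-type arrays took part in both changes, as the last-listed ones lay above the first-listed ones for Psmd3 and below them for Psmd14. Psma1 had a change of 0.42 (SE 0.11, adjusted p = 0.0531) and Psmb2 of 0.56 (SE 0.15, adjusted p = 0.0616), neither past the threshold. The change was small for Psmb5 (0.023, SE 0.086, adjusted p = 0.924) and for Psme2 (0.029, SE 0.12, adjusted p = 0.930).

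**Figure D4:**
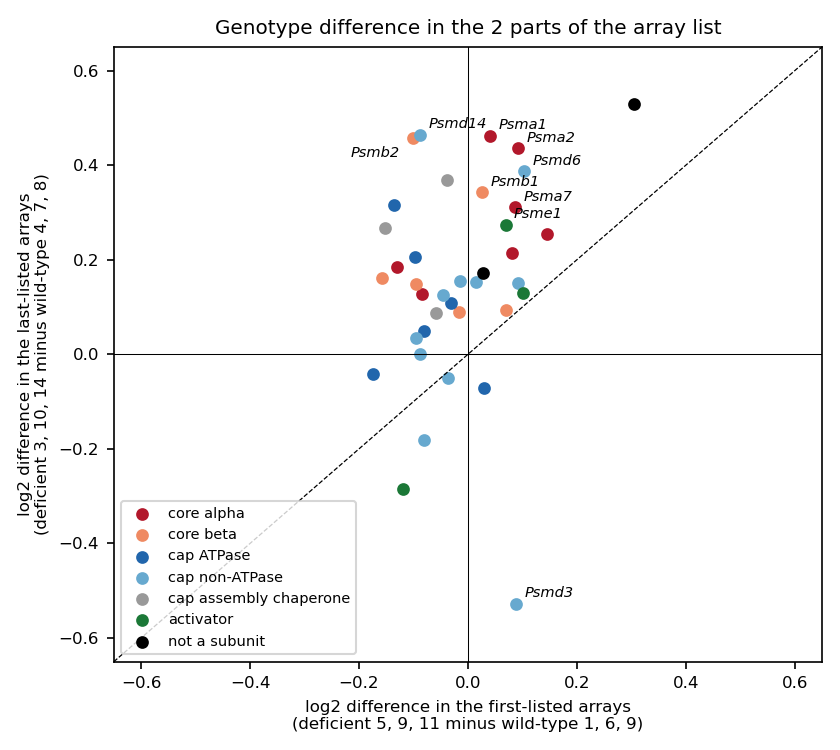
Log2 difference between deficient and wild-type grafts in the first-listed arrays (horizontal axis) and in the last-listed arrays (vertical axis), 3 arrays per genotype in each, for the 38 genes. The dashed line marks equal values, and named genes are those called in the last-listed arrays. Most points lie above the line, and Psmd3 lies far below it.

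Core genes varied together between arrays, again through the same arrays. With genotype means removed, the median Pearson correlation over the 78 pairs of core genes was 0.76 in 12 arrays, against 0.058 over all pairs of tested genes. Without deficient replicates 3, 10 and 14 it was 0.051 in 9 arrays, against 0.049. Pairs of cap subunits had medians of 0.19 and 0.14, and pairs of a core and a cap gene 0.12 and -0.062. The cap ATPases alone had 0.32 in 12 and 0.51 in 9 arrays. These pairs share arrays and their overall signal, and the values are a description.

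Further probe sets of the same genes gave a partial check. There were 9 members with several probe sets and 14 further probe sets, of which 5 did not pass the level filter. Of the 9 tested, 7 had the sign of the main probe set and 2 the opposite, 1 for Psmc6 (-0.056 against 0.089) and 1 for Psmd7 (0.14 against -0.044). All 3 probe sets of Psme4 were negative, at -0.20, -0.24 and -0.067, and that at -0.24 had an unadjusted p of 0.0177 (adjusted p = 0.606). The further probe sets of Psmd14 in the last-listed arrays had 0.38 (adjusted p = 0.0827) and 0.81 (adjusted p = 0.0313).

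Among genes that build, feed or regulate the proteasome, none was called between the genotypes either. Of a list of 37 such genes 32 were named and tested, 14 positive and 18 negative with a median of -0.037. In limma 0 were called, and 1 had an unadjusted p under 0.05. The immunoproteasome subunits, which replace the catalytic beta subunits in inflamed tissue, were positive in 3 of 3. Psmb10 had signals of 0.895, 1.25 and 1.42 in wild-type and 1.01, 1.49 and 1.88 in deficient grafts (log2 difference 0.27, SE 0.15, adjusted p = 0.634), and Psmb9 had 1.46, 1.95 and 2.64 against 1.48, 2.33 and 2.88 (0.17, SE 0.15, adjusted p = 0.705). The genotypes overlapped in both.

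The assembly chaperones of the core and the inhibitor gene Psmf1 were positive in 6 of 6, with a median of 0.075. Psmg4 had signals of 4.93, 5.22 and 6.48 in wild-type and 5.32, 6.48 and 8.02 in deficient grafts (0.25, SE 0.12, adjusted p = 0.627). Pomp, the maturation factor of the core, had 19.7, 20.2 and 21.5 in wild-type and 19.3, 21.8 and 25.5 in deficient grafts (0.11, SE 0.079, adjusted p = 0.667). Both overlapped between genotypes. Ubiquitin receptors, shuttles and cap partners were negative in 11 of 13, with a median of -0.10. Usp14, a deubiquitinase of the cap, had signals of 7.38, 7.95 and 8.96 in wild-type and 6.20, 7.16 and 7.77 in deficient grafts (log2 difference -0.17, SE 0.078, unadjusted p = 0.0402, adjusted p = 0.614), and the shuttle gene Ubqln1 had 6.58, 7.45 and 8.31 against 5.01, 6.55 and 7.58 (-0.22, SE 0.11, adjusted p = 0.6245).

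Among regulators and the unfoldase 2 were positive and 6 negative. Vcp, the segregase that delivers substrates, had signals of 11.1, 11.7 and 12.6 in wild-type and 8.61, 10.8 and 13.2 in deficient grafts (-0.16, SE 0.10, adjusted p = 0.639). Ngly1, which processes the transcription factor NRF1, had 5.86, 6.71 and 7.71 against 4.93, 6.23 and 7.09 (-0.15, SE 0.11, adjusted p = 0.658). The genes of NRF1 (Nfe2l1, -0.16) and NRF2 (Nfe2l2, 0.074) were not called. Of the ubiquitin-activating enzymes, Uba1 had 7.20, 7.77 and 8.31 in wild-type and 5.68, 6.91 and 8.44 in deficient grafts (-0.18, SE 0.096, adjusted p = 0.628), and Uba6 had 3.03, 3.39 and 3.55 against 2.81, 3.52 and 4.52 (0.10, SE 0.11, adjusted p = 0.758). In the last-listed arrays 4 of the 32 genes were called, against the 6.39% of probe sets given above. Psmg4 (0.39) and Uba6 (0.40) were higher and Vcp (-0.33) and Uba1 (-0.33) lower. The other 5 genes of the list were not analysed here.

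The 2 genes that encode no subunit are given for completeness. Psmc3ip, a cofactor of meiotic recombination, was dim, with signals of 0.541, 0.759 and 0.981 in wild-type and 0.697, 0.947 and 1.54 in deficient grafts. Its log2 difference was 0.42 (SE 0.21, adjusted p = 0.628) and, without deficient replicates 3, 10 and 14, 0.0035. Psme3ip1, whose product binds the activator PA28 gamma, had 0.10 (SE 0.11, adjusted p = 0.743).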

How the data were processed

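Biotin-labelled renal cortex RNA was measured on Affymetrix 3′ arrays, per the labels' protocols. The deposited intensity values were made by the authors with MAS5 and GCOS, per the submitters' processing notes, which give no versions. Within an array the low deposited intensities were multiples of 1 step, within 0.01 of a step, as if a signal of 1 decimal had been divided by a constant (103.8 to 197.1). The sources used here do not explain this constant. All deposited columns were used. Values under the pooled 20th percentile (0.0694) were raised to it before log2, which understates folds of dim genes. After 57 control probe sets were left out, the 18625 probe sets at or above the 40th percentile of mean log2 signal were fitted. The fit used limma 3.58.1 in R 4.3.3 (lmFit, eBayes with trend, no covariate). It was tried on simulated data with independent noise, which lack the shifts that probe sets of these arrays share. The 6 arrays per genotype limit the precision. Symbols came from the platform annotation, updated through the GRCr8 gene table. The genome build of the probe design: not given in the sources used here.

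Members, classes, lists and tests were chosen with earlier results of these data known. Full values are given for the catalytic subunits, the activators, and in each core and cap class the gene with the lowest p, the highest and the lowest log2 difference. In the wider list they are given for the 2 genes of lowest p in each group. Psmd14 and other members named beside these were chosen after their values were seen. Alternatives changed the floor, filter, normalization, variance model, array weights, covariates, probe set choice and arrays. Protein sequences were not analysed here.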

Additional observations from a re-analysis of the deposited data

Results flagged for a closer look

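Single arrays lay far from their group in 2 of 76 groups of 6 arrays, where chance alone gives about 1 in 20. Psmd12, a lid subunit gene, had a signal of 6.13 in wild-type replicate 6, while the next highest wild-type array had 5.44 and the lowest 5.13. Psme3ip1, which encodes no subunit, had 4.52 in wild-type replicate 7, while the next highest had 3.74 and the lowest 3.37.

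The genotype difference changed between the first-listed and last-listed arrays in 2 members, tested as an interaction in limma. For Psmd3 the change was -0.62 (SE 0.15, adjusted p = 0.0363), and for Psmd14 it was 0.55 (SE 0.12, adjusted p = 0.0278). The last-listed deficient arrays are those with low Gapdh 3′ to 5′ ratios. Wild-type grafts shifted with the listing as well. Psmd3 lay at 2.53 to 2.90 in first-listed and 3.08 to 3.50 in last-listed wild-type arrays. Psmd14 lay at 5.79 to 6.60 and 4.70 to 5.42.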

How the results depend on the processing

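No paired analysis was made, because the labels pair no grafts across genotypes. The genotypes share only replicate number 9, and the labels do not say that a number marks a pair. The count of called members was 0 in every fit, leaving out any 1 array included, except in the last-listed arrays alone (9). The count over all probe sets went from 4 to 2 with the filter at the 60th percentile, 112 with the listing as a block and 1190 in the last-listed arrays, and to between 3 and 5 without any 1 array. Under the other settings, with all arrays or a part of the list, class medians moved by less than the SD of their class means within genotypes, with these exceptions. The alpha median (0.20) was -0.0017 with the Gapdh covariate and -0.018 without deficient replicates 3, 10 and 14. The beta median (0.059) was -0.10 without them. The ATPase median (0.012) was -0.089 in the first-listed arrays. The non-ATPase median (0.040) was -0.016 with median centring, -0.030 with block and Gapdh covariate together, -0.037 in the first-listed and 0.13 in the last-listed arrays. The activator median (0.12) was -0.0076 with the Gapdh covariate, -0.0044 without the 3 arrays, and between 0.030 and 0.18 without any 1 array, the lowest without deficient replicate 10. Without any 1 array the alpha median was 0.13 (without deficient replicate 10) to 0.26, the beta median 0.023 (without deficient replicate 3) to 0.099, the ATPase median -0.0078 (without deficient replicate 3) to 0.038 and the non-ATPase median 0.00018 (without deficient replicate 3) to 0.065. The SD used as the limit takes in deficient replicates 3, 10 and 14. It was 0.082 in wild-type and 0.22 in deficient grafts for the alpha means, and 0.057 and 0.20 for the beta means. Moves within this limit took the alpha median to 0.082 in the first-listed arrays and 0.089 with block and Gapdh covariate. The beta median went to -0.055 in the first-listed arrays.

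Of the 14 genes given in full, 12 reversed sign in at least 1 setting. With the Gapdh covariate Psma2 had -0.0030, Psma3 -0.0017, Psmb1 -0.047, Psmb3 -0.10, Psmb5 -0.021, Psmb7 -0.049, Psmc3 0.0057 and Psme2 -0.078. Without deficient replicates 3, 10 and 14 Psma2 had -0.078, Psmb1 -0.11, Psmb3 -0.14, Psmb5 -0.064, Psmb7 -0.089, Psmc3 0.036, Psmc6 -0.00018, Psme1 -0.0044, Psme2 -0.13 and Psme4 0.057. In the first-listed arrays Psma3 had -0.085, Psmb3 -0.16, Psmb7 -0.016, Psmc6 -0.14 and Psmd3 0.089. With block and Gapdh covariate Psma3 had -0.085, Psmb3 -0.11 and Psmc6 -0.056. With median centring, which shifts all genes alike and so says nothing of these genes relative to the rest, Psma3 had -0.035, Psmb3 -0.055 and Psmb7 -0.019. With array weights Psma3 had -0.016 and Psmb3 -0.030. Leaving out 1 array took Psma3 to between -0.030 and 0.069, Psmb3 to between -0.047 and 0.033 and Psmb7 to between -0.0029 and 0.071. Psma2, at 0.26, had 0.15 to 0.34. Of the other members called in the last-listed arrays, Psmb2 had -0.050 with the Gapdh covariate, -0.10 in the first-listed arrays and -0.11 without the 3 arrays, Psma7 had -0.013 with the covariate and -0.074 without them, and Psmd14 had -0.088 in the first-listed arrays. The causes were not tested. The deficient signals of Abcc2 reached below the floor, so its fold is understated.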
